A study of Mus musculus with 15 samples.

Results

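The cytosolic ribosomal protein genes encode the proteins that, with ribosomal RNA, build the large and the small subunit of the ribosome outside the mitochondria. They were taken by symbol: every gene whose platform symbol begins with Rpl or Rps and a digit, plus Rplp0, Rplp2 and Rpsa, without the Rps6k kinases, pseudogenes and like-named copies. Each was read by its brightest probe set among those that the platform assigns to 1 gene. This gave 44 of the 18194 genes measured, 22 of the large subunit, 21 of the small subunit and Rps19bp1. Rps19bp1 encodes a protein that binds Rps19 and is no part of the ribosome, but its symbol falls under the same pattern, so the list holds 43 ribosomal protein genes.

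The samples were LSK cells, blood stem and progenitor cells without lineage markers and with Sca1 and Kit, sorted from bone marrow of C57BL6 mice and read on 1 array each. The groups differ at Apc, whose product holds together the destruction complex that keeps beta-catenin low and so curbs Wnt signalling. The groups were WT (wt/wt), KO (15lox/15lox), N1638 (15lox/1638N) and T1572 (15lox/1572T), where 15lox is a floxed allele and 1638N and 1572T are hypomorphic alleles. The question was how graded Wnt signalling acts on blood stem cells. Cells of all 4 groups, WT included, received the MSCV-Cre-IRES-GFP retrovirus, so Cre acted in whichever sorted cells the virus had entered. GFP-positive cells were sorted again, and growth conditions were StemSpan medium with mFlt3L, mTpo and mSCF. The labels give no age, sex or batch, and none says that replicates came from different animals. Every p-value here therefore rests on the spread between these samples, which may be technical. It also rests on the spread of all genes, towards which the fit draws that of each gene. WT was represented by WT 4, WT 5 and WT 6, and each mutant group by replicates 1 to 3, in all 12 arrays. The other WT arrays, 1 to 3, carry values that look shifted probe set by probe set onto the mean of WT 4 to 6. Of the 44 genes, 43 had a mean over WT 1 to 3 within 0.05 of the mean over WT 4 to 6 on the log2 scale, as had 96.6% of all genes.

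Levels are the deposited log2 intensities. The number of arrays, 3 a group, limits the precision. The markers fixed for LSK cells that could be read, Kit, Cd34, Flt3 and Ptprc, had mean levels of 11.3, 13.5, 12.4 and 12.3 over the 12 arrays. The markers of mature cells that the sort removes and that could be read, Cd3e, Cd4, Cd8a and Itgam, had means of 4.96, 5.00, 5.58 and 5.02. The probe set of Apc read 9.57, 9.61 and 9.85 in WT, 10.46, 10.23 and 10.66 in KO, 9.84, 9.82 and 9.91 in N1638, and 10.42, 10.11 and 10.07 in T1572. Its place relative to the floxed exon is not given in the sources used here, so this reading does not check the labels. Judged by Xist and Y-linked genes, arrays of female type numbered 0 of 3 in WT, 2 of 3 in KO, 1 of 3 in N1638 and 1 of 3 in T1572. The types were thus uneven across the groups. By this reading KO, N1638 and T1572 each held both types, so the arrays of such a group do not all come from 1 animal.

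Ribosomal protein genes are among the most strongly expressed genes of a growing cell, and the assembled ribosome holds most of their products in equal numbers. Most of these messages begin with a C followed by a run of pyrimidines, the terminal oligopyrimidine tract (TOP), through which the kinase mTOR adjusts their translation. In blood the family is known from Diamond-Blackfan anaemia, a failure of red cell formation caused by loss of 1 copy of one of several of these genes. Myc, a Wnt target in several tissues, raises transcription of ribosomal protein genes.

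RefSeq windows of 300 bases, from 250 before the start of transcription to 50 after it on assembly GRCm38.p6, were matched by symbol to 39 of the 44 genes, which had 45 windows. Rpl7, Rpl8, Rps14, Rps20 and Rps29 had no window. A C at the start base with 4 or more pyrimidines behind it was found in 8 of the 45 windows (17.8%), against 2.51% of all 32851 windows. These 8 starts are printed because they show the feature for which this family's messages are known. Each line runs 5′ to 3′ along the gene's strand, with 10 bases before the start base and 20 from it, and capitals mark the C and the pyrimidines that follow it without a break. The places are chr9:120571507-120571536 (+) for Rpl14, chr2:39005112-39005141 (-) for Rpl35, chr11:114668570-114668599 (+) for Rpl38, chr7:141447641-141447670 (+) for Rplp2, chr17:27635225-27635254 (-) for Rps10, chr17:33955646-33955675 (-) for Rps18, chr3:90213629-90213658 (-) for Rps27 and chr4:86857348-86857377 (-) for Rps6.
Rpl14: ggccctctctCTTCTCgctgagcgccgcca
Rpl35: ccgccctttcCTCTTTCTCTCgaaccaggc
Rpl38: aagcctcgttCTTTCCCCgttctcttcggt
Rplp2: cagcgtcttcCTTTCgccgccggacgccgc
Rps10: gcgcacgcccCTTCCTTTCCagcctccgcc
Rps18: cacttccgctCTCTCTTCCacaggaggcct
Rps27: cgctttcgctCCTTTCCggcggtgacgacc
Rps6: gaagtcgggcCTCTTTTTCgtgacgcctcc

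The runs were 5 to 11 bases long, shortest in Rplp2 and longest in Rpl35. The pattern depends on the exact base that RefSeq annotates as the start, and a start set a few bases away gives no match. In all, 10 patterns were searched, this one and 9 words on both strands. The word CTTTGAT, bound by the Tcf and Lef factors that carry the Wnt signal in the nucleus, was in 0 of the 45 windows and in 3.73% of all windows. Its shorter form CTTTGA, contained in it, was in 6.67% of the windows of these genes and in 16% of all. CACGTG, the E-box that Myc binds, was in 11.1% against 7.15%. A word is a match of letters in this window only and shows no binding.

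Of the 9 words, the widest gap in percentage points was that of CCGGAAG, bound by ETS factors, in 19 of 45 windows (42.2%) against 8.86% of all. The overlapping word TTCCGGT, which shares 6 letters with its other strand, was in 20% against 3.72%. AAGATGGC, the word of the factor YY1, was in 6.67% against 2.75%. The TATA box TATAAA was in 11.1% against 13.6%. CTTTCC was in 46.7% against 26.6%, and CTCTTTCC, which contains it, in 8.89% against 3.12%. Windows with CCGGAAG in capitals are printed for 4 genes described below, at chr11:114668549-114668578 (+) for Rpl38, chr15:5116579-5116608 (+) for Rpl37, chr9:44407630-44407659 (+) for Rps25 and chr4:86857440-86857469 (-) for Rps6.
Rpl38: gggttaaccgtCCGGAAGcggaagcctcgt
Rpl37: accaagacccgCCGGAAGtagtttcctggg
Rps25: cacccattgccCCGGAAGtactctctcgag
Rps6: ttaatctacgcCCGGAAGtaacgcccctct

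The word lay 20, 23, 73 and 91 bases before the start in Rpl38, Rpl37, Rps25 and Rps6. The family sits on 15 chromosomes, with Rpl39 and Rps4x on the X chromosome.

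No ribosomal protein gene changed past the threshold between any 2 of the 4 groups. From the lowest to the highest of the 12 arrays 26 of the 44 genes spanned less than 0.2 on the log2 scale, and all 26 are among the 35 whose probe sets read at 14 or more, near the top of the arrays' scale. Of the 9 others, 0 spanned less than 0.2 and 4 less than 0.4. Against WT the median log2 difference over the 44 genes was -0.0017 in KO, 0.0017 in N1638 and 0.0067 in T1572, beside medians over all genes of -0.047, -0.035 and -0.026. These values depend on the scaling: with each array centred on its median over genes they became 0.012, 0.18 and 0.12, beside -0.033, 0.14 and 0.083 over all genes. With values as deposited, the differences ran from -0.34 to 0.096 in KO, from -0.21 to 0.43 in N1638 and from -0.049 to 0.19 in T1572. Expression per cell and the share of cells that express a gene cannot be told apart in such bulk samples, nor can fewer cells of a type be told from less RNA per cell.

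**Figure D1:**
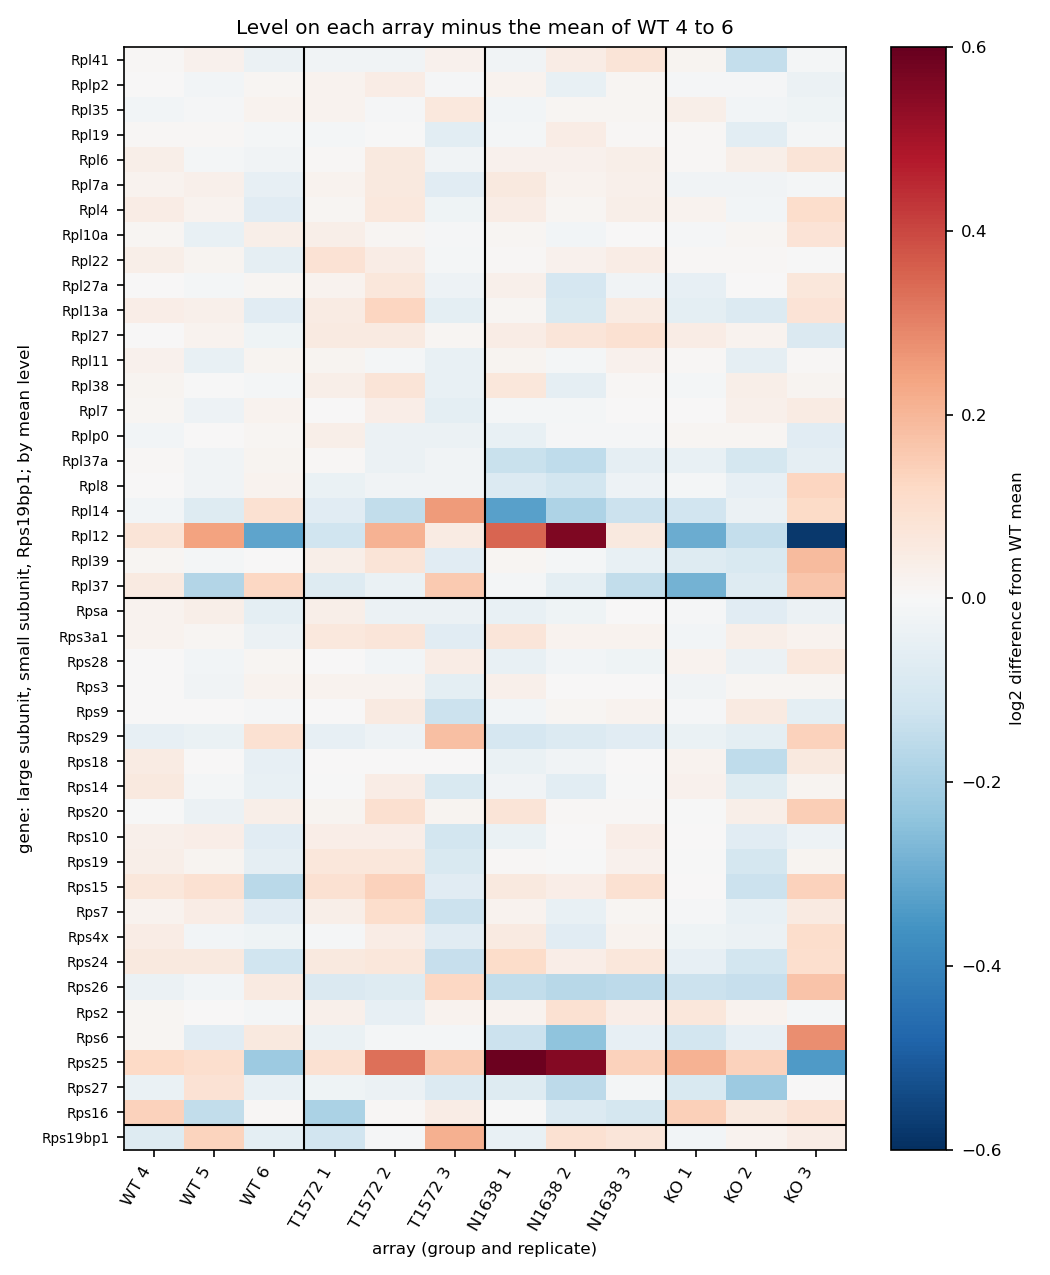
Each cell shows the log2 level of a gene (rows, ordered by subunit and mean level) on one of the 12 arrays (columns) minus the mean of WT 4 to 6, on a colour scale from -0.6 to 0.6. Most rows are near white throughout, and the strong colours are in Rpl12, Rps25, Rpl14, Rps6 and Rpl37.

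In KO against WT, limma with Benjamini-Hochberg adjustment over all genes called 0 of the 44 at an adjusted p under 0.05, while 2.55% of all genes were called. The lowest adjusted p in the list was 0.494, that of Rpl12. At an unadjusted p under 0.05 there were also 0 of 44, beside 12.1% of all genes.

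In N1638 against WT the same test called 0 of 44, beside 3.47% of all genes, and the lowest adjusted p was 0.186, that of Rps25. At an unadjusted p under 0.05 Rps25 was the single gene of the list, beside 19.8% of all genes. With limma's array weights, Rps25 alone passed the threshold (log2 difference 0.42, adjusted p = 0.0473), and the share of all genes called was then 15.8%.

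In T1572 against WT 0 of 44 were called, beside 0.11% of all genes, with a lowest adjusted p of 0.861 and 0 genes at an unadjusted p under 0.05, beside 7.91% of all genes. Between mutant groups the counts were again 0 of 44 by limma. The background was 0.418% of all genes in KO against N1638, 1.63% in KO against T1572 and 0.352% in N1638 against T1572. At an unadjusted p under 0.05 these comparisons held 2, 1 and 0 genes of the list, beside 10.6%, 9.37% and 9.24% of all genes. These were Rpl12 and Rps25, both lower in KO than in N1638, and Rpl12, lower in KO than in T1572. The 3 comparisons with WT share the same control arrays, so they are not independent of each other.

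A p that misses the threshold does not show that a level stayed the same, so the intervals matter here. The 95% interval of the fitted difference lay within 1.2-fold of WT in both directions for 37 of 44 genes in KO, 32 in N1638 and 39 in T1572. Over all genes this held for 12.2%, 10.7% and 12.8%, but narrow intervals were common among bright genes. At a mean level of 14 or more it held for 80%, 49.5% and 78.9% of the 95 genes outside the list. Of the 35 genes of the list at that level it held for 100%, 85.7% and 97.1%. The counts of 44 hold for the deposited scaling: with each array centred on its median they were 36, 3 and 1, beside 6.3%, 2.69% and 4.29% of all genes. Within 1.5-fold lay 43, 42 and 44 of the 44 as deposited, and 43, 42 and 42 with the centring. With the centring 0, 8 and 0 of the 44 intervals left out 0, and limma again called 0 of 44 in each of these comparisons. As deposited, no interval, of this list or of any other gene, was narrow enough to lie within 1.1-fold. The fit draws each gene's variance towards a value shared by all genes, so the steadiest genes have wider intervals than their own spread gives. For Rplp2 the spread within groups was 0.025 and the standard error of its difference in KO 0.070. The median standard error of a difference was 0.077 over the list and 0.13 over all genes.

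**Figure D2:**
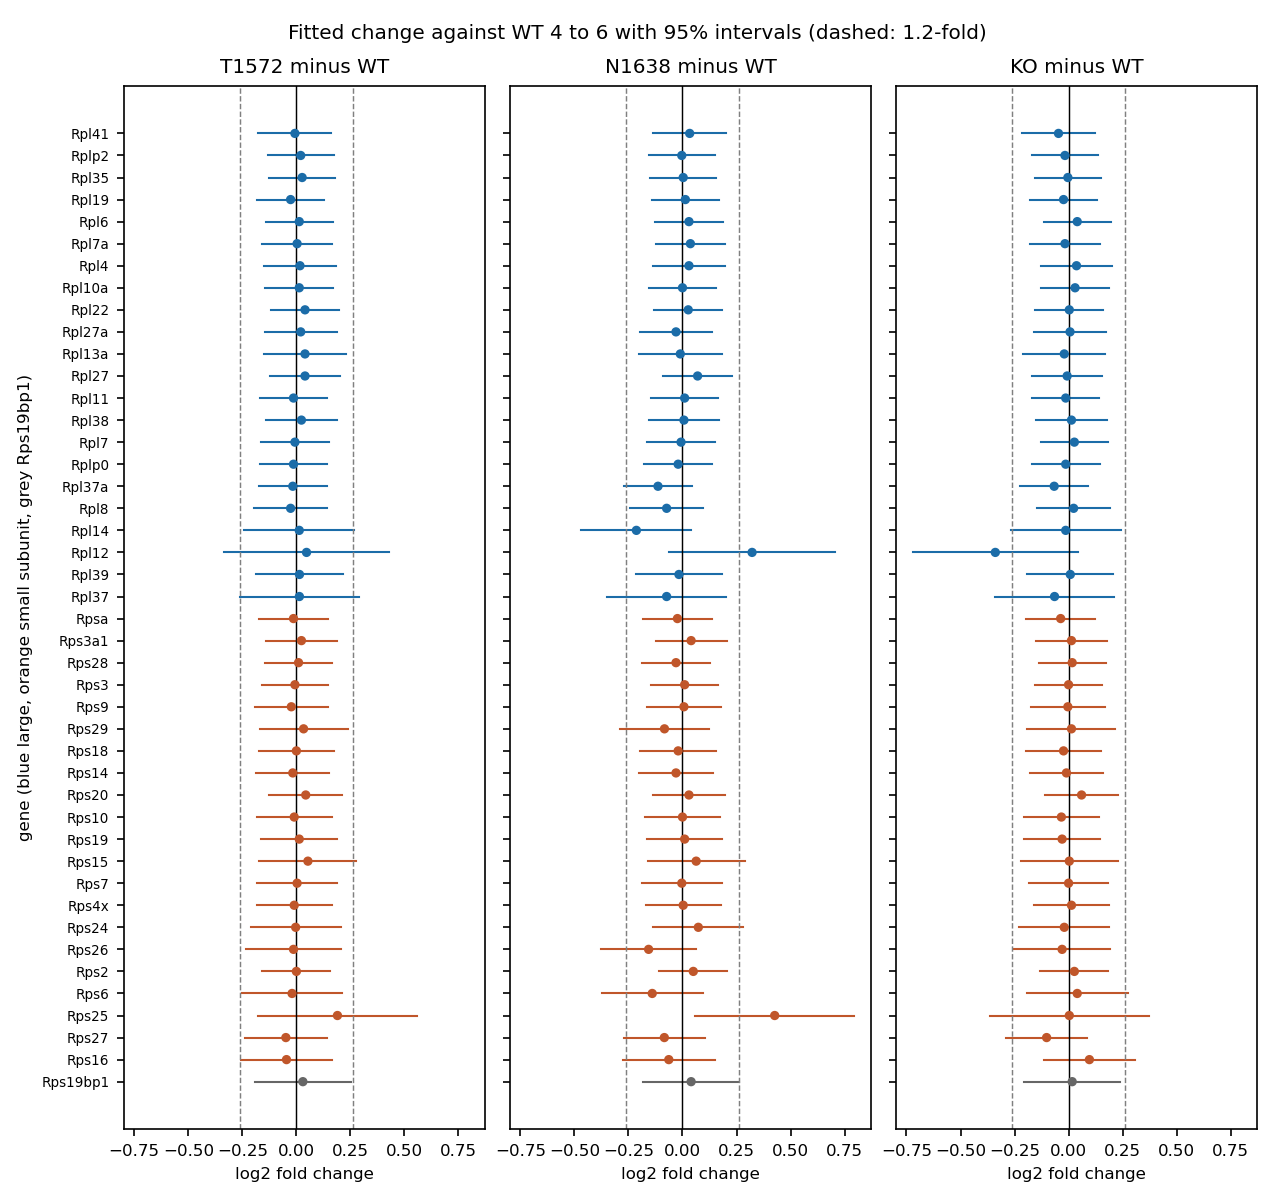
Points are fitted log2 fold changes against WT 4 to 6 and lines their 95% intervals, for T1572, N1638 and KO, with dashed lines at 1.2-fold and values as deposited. Among all intervals drawn, only that of Rps25 in N1638 leaves out 0.

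Most of these probe sets read near the top of the arrays' scale, and this bounds what the comparison could show. Of the 44, 35 had a mean level of 14 or more, and the brightest probe set on each of the 12 arrays read between 15.23 and 15.42. Over all genes, 130 had a mean of 14 or more. Of the 95 such genes outside the list, limma called 0 in each of the 6 comparisons, and at an unadjusted p under 0.05 there were 2 in KO and 8 in N1638 against WT and 0 in T1572. The median spread between replicates of a group was 0.053 for the list, 0.067 for those 95 genes and 0.16 for all genes. Whether a change of these messages would be read at its true size so near the top of the scale was not tested.

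**Figure D3:**
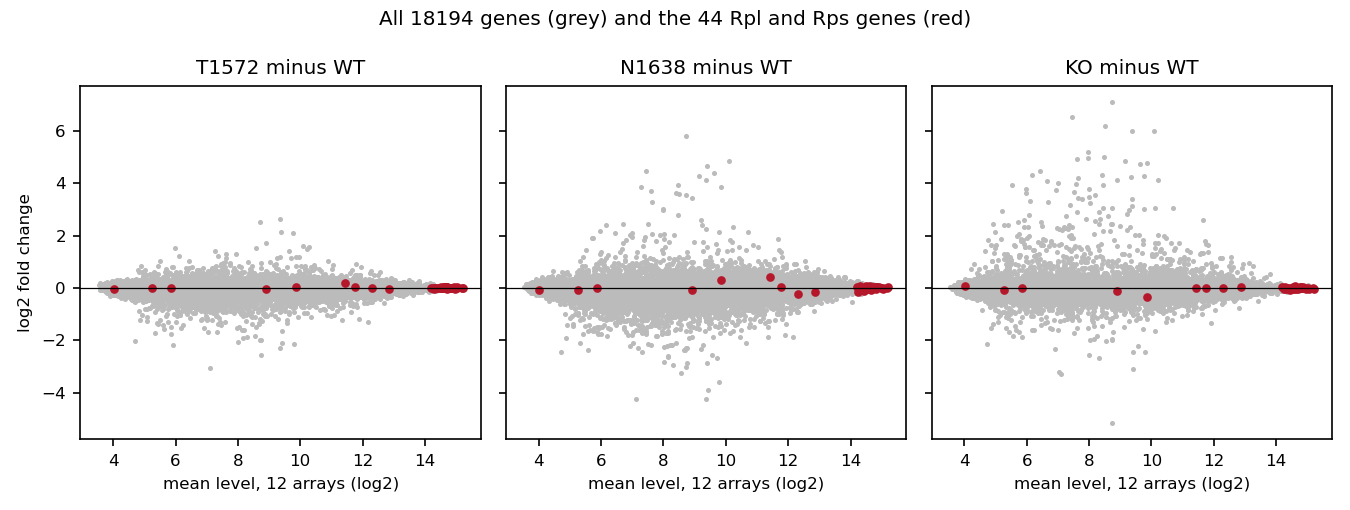
Log2 fold change against WT (vertical) by mean log2 level over 12 arrays (horizontal) for all 18194 genes in grey and the 44 in red. The cloud narrows towards the right, where 35 of the 44 lie at 14 or above.

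The 9 genes with means under 14 were Rps16, Rpl37, Rpl39, Rps27, Rpl12, Rps25, Rps19bp1, Rpl14 and Rps6. Their differences had a median standard error of 0.11, against 0.075 for the 35 others. The probe sets of Rps16, Rpl37 and Rpl39, with means of 4.02, 5.26 and 5.86, read about as low as Cd3e, Cd4, Cd8a and Itgam, the markers of cells that the sort removes. The deposited values carry no detection call, so these 3 cannot be taken as above background, and whether a change of these genes could be read there is not known. The ranges of all 9 genes over the 12 arrays ran from 0.28 to 1.14, those of the 35 others from 0.08 to 0.34. As deposited, 2 of these 9 had an interval within 1.2-fold in KO, 2 in N1638 and 5 in T1572.

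Rps25 encodes a small subunit protein known to be needed where translation starts inside a message. Its level was 11.39, 11.37 and 11.05 in WT, 11.48, 11.41 and 10.93 in KO, 11.86, 11.82 and 11.41 in N1638, and 11.36, 11.60 and 11.42 in T1572. The N1638 arrays lay above all WT arrays, the lowest of them at 11.41 against a highest WT array of 11.39, while KO and T1572 overlapped with WT. In N1638 the difference from WT was 0.43 (SE 0.17, a fold of 1.34 with a 95% interval from 1.04 to 1.74), adjusted p = 0.186 by limma. Without WT 6 the difference was 0.32 (adjusted p = 0.482), and without N1638 3 it was 0.57 (adjusted p = 0.0823). In KO it was 0.0033 and in T1572 0.19 (adjusted p 0.996 and 0.861).

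Rpl12, a protein at the base of the stalk that recruits elongation factors, had the widest range of the list. It read 9.93, 10.09 and 9.54 in WT, 9.56, 9.71 and 9.27 in KO, 10.20, 10.41 and 9.91 in N1638, and 9.73, 10.06 and 9.90 in T1572. KO and N1638 did not overlap, but both overlapped with WT. KO was below N1638 by 0.66 (log2 difference -0.66, SE 0.17, adjusted p = 0.215 by limma). Against WT the difference was -0.34 in KO (adjusted p = 0.494) and 0.32 in N1638 (adjusted p = 0.337). In each of the 4 groups the array with the lowest Rpl12 was also the array with the lowest Rps25, namely WT 6, KO 3, N1638 3 and T1572 1.

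Rpl14, of the large subunit, read 12.34, 12.28 and 12.45 in WT, 12.24, 12.32 and 12.47 in KO, 12.03, 12.17 and 12.23 in N1638, and 12.29, 12.21 and 12.61 in T1572. The N1638 arrays all lay below WT, with a difference of -0.21 (SE 0.12, adjusted p = 0.34). Rps6, the substrate by which activity of the S6 kinases is usually read, gave 12.90, 12.82 and 12.95 in WT, 12.78, 12.84 and 13.17 in KO, 12.76, 12.65 and 12.84 in N1638, and 12.85, 12.88 and 12.88 in T1572. Its N1638 arrays overlapped with WT, with a difference of -0.14 (SE 0.11, adjusted p = 0.508).

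For Rps27, Rps16, Rpl37, Rpl39 and Rps19bp1 the differences from WT in the 3 mutants ran from -0.10, for Rps27 in KO, to 0.096, for Rps16 in KO. Rps27, a zinc-binding protein of the small subunit, read 8.93, 9.05 and 8.92 in WT, 8.88, 8.75 and 8.97 in KO, 8.89, 8.81 and 8.95 in N1638, and 8.94, 8.93 and 8.88 in T1572. Rps16, a small subunit protein, read 4.16, 3.88 and 4.04 in WT, 4.17, 4.08 and 4.11 in KO, 4.03, 3.94 and 3.92 in N1638, and 3.84, 4.03 and 4.07 in T1572. Rpl37, a zinc-binding large subunit protein, read 5.35, 5.12 and 5.42 in WT, 5.01, 5.22 and 5.46 in KO, 5.28, 5.23 and 5.14 in N1638, and 5.22, 5.25 and 5.45 in T1572. In each of these 3 genes every mutant group overlapped with WT.

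Rpl39, a small X-linked protein in the wall of the tunnel through which new chains leave the ribosome, read 5.87, 5.85 and 5.86 in WT, 5.78, 5.77 and 6.05 in KO, 5.87, 5.85 and 5.81 in N1638, and 5.90, 5.93 and 5.79 in T1572. All groups overlapped with WT. The level of the other X-linked gene, Rps4x, was 14.36, 14.30 and 14.29 in WT, 14.29, 14.28 and 14.42 in KO, 14.37, 14.25 and 14.34 in N1638, and 14.31, 14.36 and 14.25 in T1572. Here too the groups overlapped, and the largest difference from WT of either gene in any mutant was -0.016, that of Rpl39 in N1638.

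Different probe sets of one gene disagreed in level for several of these genes. The platform reads 14 of the 44 genes also with probe sets that it assigns to the gene and to pseudogenes or unnamed copies. For 8 of the 9 genes under 14, all but Rps19bp1, the brightest shared probe set had a mean of 14.2 to 15.0. For Rps16 the mean was 4.02 on its own probe set and 14.5 on the shared one, for Rpl37 5.26 and 14.3, for Rpl39 5.86 and 14.2 and for Rps27 8.91 and 14.9. For Rpl12 the means were 9.86 and 14.7, for Rps25 11.4 and 14.7, for Rpl14 12.3 and 14.8 and for Rps6 12.9 and 15.0. Levels of different probe sets are not on one scale, and a shared probe set cannot tell the gene from its copies.

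Own and shared probe sets also differed in the fitted differences. In N1638 the size of the difference from WT was smaller on the shared probe set for 7 of the 14 genes and larger for 7, in KO for 6 and 8, and in T1572 for 5 and 7. The genes of largest difference on the own probe set, whose shared ones read near the top of the scale, were smaller there. For Rps25 in N1638 the log2 difference from WT was 0.43 on its own probe set and 0.087 on the shared one. For Rpl12 it was 0.32 and 0.030 in N1638, and -0.34 and -0.070 in KO. For Rpl14 in N1638 it was -0.21 and 0, and for Rps6 -0.14 and -0.013. The reverse held for Rps19 in N1638, with 0.010 on its own probe set and 0.27 on the shared one, for Rpl11 with 0.010 and 0.16, and for Rpl37 with -0.073 and 0.11. The shared probe sets of Rps19 and Rpl11 had means of only 5.86 and 8.46, against 14.5 and 14.6 on their own. Like the own probe set of Rpl37, at 5.26, the shared one of Rps19 cannot be taken as above background. The difference between own and shared probe sets was not tested.

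**Figure D4:**
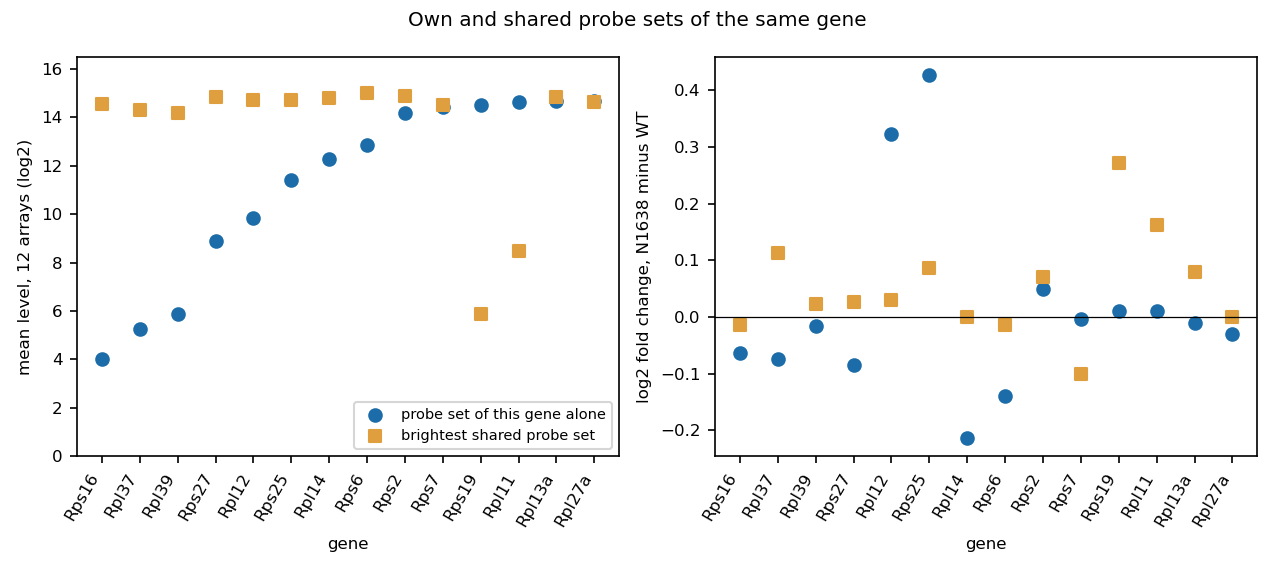
For the 14 genes read by both kinds of probe set, the left panel shows the mean log2 level over 12 arrays of the gene's own probe set (blue) and of its brightest shared one (orange), and the right panel the log2 fold change of N1638 against WT. In 8 genes the own probe set lies below 14 and the shared one above, and the largest blue differences, Rps25 and Rpl12, have orange points near 0.

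All 96 probe sets assigned to the 44 genes alone were also tested singly, with adjustment over all 45101 probe sets. By limma 0 of the 96 were called in each of the 6 comparisons. The share of all probe sets called was 1.49% in KO, 1.38% in N1638 and 0.0288% in T1572 against WT, 0.186% in KO against N1638, 1% in KO against T1572 and 0.171% in N1638 against T1572. At an unadjusted p under 0.05 these held 0, 5, 2, 7, 0 and 3 of the 96, beside 10.2%, 16%, 6.84%, 8.67%, 8.03% and 7.72% of all probe sets. A further 24 ribosomal protein genes, among them Rpl5, Rpl10, Rpl3, Rps12 and Rplp1, are read by shared probe sets alone and so lie outside the list. On the brightest shared probe set of each, limma called 0 of these 24 in any comparison, and 0 had an unadjusted p under 0.05. On these probe sets the log2 differences from WT ran from -0.11 to 0.053 in KO, from -0.17 to 0.060 in N1638 and from -0.043 to 0.077 in T1572. Own and shared probe sets of the 68 genes numbered 198, and limma called 0 of them in each comparison. At an unadjusted p under 0.05 the 6 comparisons held 0, 7, 2, 11, 2 and 3 of the 198, beside the same shares of all probe sets.

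By subunit, with values as deposited, the median difference from WT over the 22 large subunit genes was -0.010 in KO, 0.0017 in N1638 and 0.014 in T1572. Over the 21 small subunit genes it was 0, 0 and -0.0033. An interval within 1.2-fold was found for 19, 18 and 19 of the 22 and for 17, 13 and 19 of the 21.

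The stalk of the large subunit, which binds elongation factors, is made of Rplp0 with the acidic proteins Rplp1 and Rplp2, and 3 of the 4 genes listed for it were read, Rpl12 included. Rplp0 read 14.53, 14.55 and 14.56 in WT, 14.56, 14.56 and 14.48 in KO, 14.50, 14.54 and 14.54 in N1638, and 14.58, 14.51 and 14.51 in T1572. Rplp2, among the 3 genes of smallest spread, read 15.18, 15.16 and 15.19 in WT, 15.17, 15.17 and 15.14 in KO, 15.20, 15.13 and 15.19 in N1638, and 15.20, 15.22 and 15.17 in T1572. Their groups overlapped throughout, and neither differed from WT by more than 0.02 in any mutant.

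Around the exit tunnel 4 of 8 listed genes were read, Rpl19, Rpl22, Rpl35 and Rpl39. Rpl35 read 15.01, 15.02 and 15.05 in WT, 15.06, 15.01 and 15.00 in KO, 15.01, 15.04 and 15.04 in N1638, and 15.05, 15.02 and 15.09 in T1572. Rpl22, needed for the growth of developing T cells, read 14.73, 14.71 and 14.64 in WT, 14.70, 14.70 and 14.69 in KO, 14.70, 14.72 and 14.74 in N1638, and 14.78, 14.74 and 14.68 in T1572. The groups overlapped in both genes, and all 4 genes had intervals within 1.2-fold in all 3 mutants. Rpl22l1, the close copy of Rpl22 that is made when Rpl22 is lacking, lies outside the list and differed from WT by 0.063 in KO, 0.21 in N1638 and 0.17 in T1572 (adjusted p 0.895, 0.307 and 0.779).

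Rpl38, needed for the translation of some Hox messages in the embryo, read 14.61, 14.59 and 14.58 in WT, 14.58, 14.63 and 14.61 in KO, 14.66, 14.54 and 14.60 in N1638, and 14.63, 14.67 and 14.55 in T1572. Rpl8, close to the catalytic centre of the large subunit, read 14.31, 14.29 and 14.33 in WT, 14.30, 14.26 and 14.44 in KO, 14.23, 14.20 and 14.28 in N1638, and 14.27, 14.29 and 14.29 in T1572. The Rpl38 groups overlapped, and the Rpl8 arrays of N1638 lay below those of WT. Rpl37a, a zinc-binding protein of the large subunit, read 14.50, 14.47 and 14.51 in WT, 14.45, 14.39 and 14.44 in KO, 14.36, 14.34 and 14.44 in N1638, and 14.50, 14.46 and 14.47 in T1572.

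Rpl37a was lower than every WT array on all KO and all N1638 arrays, by 0.067 in KO as deposited (log2 difference -0.067, SE 0.072, adjusted p = 0.804) and 0.11 in N1638 (-0.11, SE 0.072, adjusted p = 0.417). In KO it was the single gene of the 44 whose arrays did not overlap with WT, beside 18.3% of all genes. In N1638 there were 8 of 44 beside 28.8% of all genes, with values as deposited. Rpl27, Rps2 and Rps25 lay above WT and Rpl8, Rpl14, Rpl37a, Rps26 and Rps29 below. With each array centred on its median the sign turned for Rpl8, Rpl37a and Rps26, to 0.10, 0.061 and 0.018, and also for Rps29, while Rpl14 stayed lower at -0.039. In T1572 there were 0 of 44 beside 13.9%. Between mutant groups the arrays did not overlap for 6 of 44 genes in KO against N1638 (14.9% of all genes), 3 in KO against T1572 (11.5%) and 4 in N1638 against T1572 (14.1%).

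Diamond-Blackfan anaemia has been traced to many of these genes, and 11 of the 18 listed for it were read. None of the 11 was called by limma in any of the 6 comparisons, and 0 had an unadjusted p under 0.05 against WT. Their differences from WT ran from -0.10 to 0.017 in KO, from -0.16 to 0.073 in N1638 and from -0.049 to 0.040 in T1572. Rps19, the gene most often mutated in the disease, read 14.55, 14.53 and 14.46 in WT, 14.51, 14.41 and 14.53 in KO, 14.52, 14.51 and 14.54 in N1638, and 14.58, 14.58 and 14.42 in T1572. Its groups overlapped, and in KO its fold against WT was 0.979, with a 95% interval from 0.868 to 1.11.

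Rps24, of the same disease list, read 14.36, 14.36 and 14.18 in WT, 14.25, 14.19 and 14.40 in KO, 14.41, 14.34 and 14.37 in N1638, and 14.36, 14.37 and 14.16 in T1572. Rps26, at the channel by which the message leaves the small subunit, read 14.26, 14.28 and 14.35 in WT, 14.17, 14.16 and 14.47 in KO, 14.15, 14.13 and 14.14 in N1638, and 14.21, 14.22 and 14.42 in T1572. The N1638 arrays of Rps26 lay below WT, by 0.16 as deposited (log2 difference -0.16, SE 0.10, adjusted p = 0.424), and the Rps24 groups overlapped. Rpl11, which with Rpl5 and a small ribosomal RNA holds Mdm2 and so links ribosome assembly to p53, read 14.65, 14.58 and 14.64 in WT, 14.63, 14.57 and 14.63 in KO, 14.64, 14.61 and 14.65 in N1638, and 14.64, 14.61 and 14.58 in T1572. The 12 arrays of Rpl11 spanned 0.08, the narrowest range of the list.

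Rps14, known for the anaemia of a myelodysplastic syndrome in which 1 copy is lost, read 14.67, 14.60 and 14.57 in WT, 14.64, 14.54 and 14.63 in KO, 14.59, 14.55 and 14.61 in N1638, and 14.61, 14.66 and 14.52 in T1572. Its groups overlapped in every comparison with WT. Rps15, a small subunit protein, read 14.54, 14.56 and 14.31 in WT, 14.47, 14.34 and 14.61 in KO, 14.53, 14.51 and 14.56 in N1638, and 14.56, 14.61 and 14.40 in T1572. Rps20, also of the small subunit, read 14.56, 14.53 and 14.60 in WT, 14.56, 14.60 and 14.71 in KO, 14.64, 14.57 and 14.57 in N1638, and 14.58, 14.66 and 14.58 in T1572. Rps3, at the entry of the message channel and among the 3 genes of smallest spread, stayed between 14.68 and 14.77 on all 12 arrays.

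Within groups the arrays did not stand at one height for the family. T1572 3 was the lowest of its group for 25 of the 44 genes (56.8%), beside 28% of all genes and 45.3% of the 95 other genes at 14 or above. WT 6 was the lowest of WT for 24 (54.5%), beside 36.8% of all genes and 40% of those 95. KO 2 was the lowest of KO for 22 (50%), beside 40.8% and 36.8%. KO 3 was the highest of KO for 24 (54.5%), beside 42.5% and 43.2%. Ties are left out of the counts for the 44 but kept in the other shares, so these measures are not quite alike. The median level of the 44 nevertheless stayed between 14.54 and 14.63 over the 12 arrays.

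Around the ribosome itself, other lists of the translation machinery serve as a comparison. Of 76 genes for mitochondrial ribosomal proteins, 0 were called by limma against WT in any mutant. At an unadjusted p under 0.05 there were 2 in KO (2.63%), 8 in N1638 (10.5%) and 4 in T1572 (5.26%), beside 12.1%, 19.8% and 7.91% of all genes. Their median difference from WT was 0.0083 in KO, 0.083 in N1638 and -0.0017 in T1572. Ribosome biogenesis, the nucleolar work of making and processing ribosomal RNA, was covered by 39 genes with medians of 0.050, 0.25 and 0.10. By limma 0 of these 39 were called, and at an unadjusted p under 0.05 there were 1 (2.56%), 13 (33.3%) and 0, all higher than WT, beside the same 12.1%, 19.8% and 7.91% of all genes. Those of lowest adjusted p in N1638 were Heatr3, with a difference of 0.92 (SE 0.27, adjusted p = 0.0942), and Bysl, with 0.72 (SE 0.22, adjusted p = 0.0995), both factors of subunit assembly. In N1638, then, the ribosomal protein list had a median of 0.0017 beside 0.25 for the biogenesis list, and the difference between the lists was not tested.

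Of 30 initiation factor genes 0 were called, with medians of 0.0033, 0.070 and -0.047. At an unadjusted p under 0.05 there were 0, 3 (10%) and 0 of them, beside 12.1%, 19.8% and 7.91% of all genes. Eif3b, a subunit of the factor that brings the small subunit to the message, had the lowest adjusted p, with a difference of 0.51 in N1638 (SE 0.14, adjusted p = 0.0665). Of 6 elongation genes 0 were called, with 0, 1 and 0 at an unadjusted p under 0.05, beside the same shares of all genes. The medians of these 6 were 0.016, 0.055 and 0.022, and in N1638 their differences ran from -0.11 to 0.78, with 4 above 0 and 2 below. The single gene at an unadjusted p under 0.05 was higher in N1638. Eef2, which moves the ribosome along, differed by -0.013, -0.11 and -0.083. Of 17 other genes whose messages start with a pyrimidine tract 0 were called, with medians of 0.0033, 0.030 and -0.037. At an unadjusted p under 0.05 there were 0, 1 (5.88%) and 0 of these 17, again beside 12.1%, 19.8% and 7.91% of all genes. Fau, which encodes a further small subunit protein fused to a ubiquitin-like one, differed by -0.0067, -0.0067 and -0.017. Of 6 like-named copies of ribosomal protein genes 0 were called, and the single one with an unadjusted p under 0.05 was Rpl39l, lower in N1638 (log2 difference -0.64, SE 0.23, adjusted p = 0.147).

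Among 13 targets of p53, the factor that free Rpl11 can stabilise, Pmaip1, a promoter of cell death, rose in KO (0.70, SE 0.14, adjusted p = 0.0224) and in N1638 (0.70, SE 0.14, adjusted p = 0.0251). In T1572 its difference was 0.50 (adjusted p = 0.343). The 12 others were not called in any comparison with WT. Of all genes, 2.55% were called in KO, 3.47% in N1638 and 0.11% in T1572. Bbc3, another promoter of cell death, differed by -0.57 in KO and -0.76 in N1638 (adjusted p 0.305 and 0.0887).

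**Figure D5:**
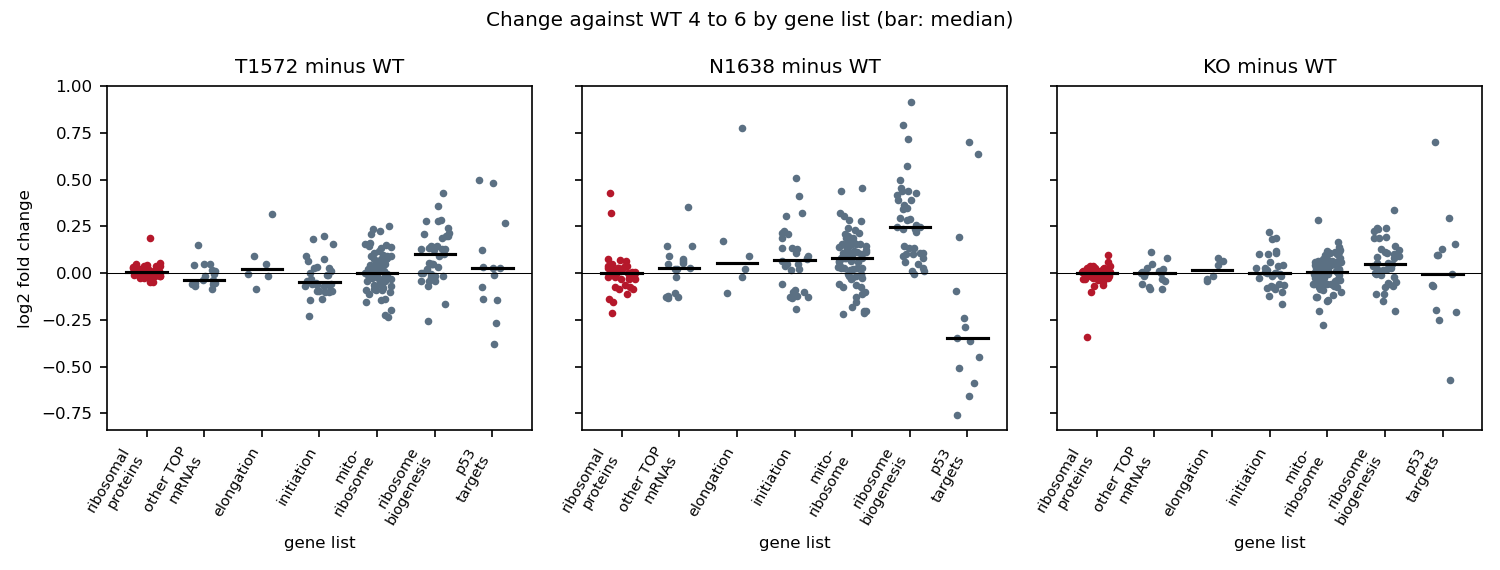
Points are genes and bars list medians of the log2 fold change against WT 4 to 6 in T1572, N1638 and KO, with the ribosomal protein list in red. With values as deposited, the red points lie close around 0 in all 3 panels, and the ribosome biogenesis list of N1638 has its median at 0.25.

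Markers of some other blood cells changed between the same groups. Of 6 monocyte markers read, 3 rose in KO and in N1638 and 1 in T1572, where 2.55%, 3.47% and 0.11% of all genes were called in either direction. Of the others, Csf1r differed by -0.35 in KO and -0.88 in N1638 and Adgre1 by -0.12 and -0.20, neither past the threshold. Cd14, a receptor of bacterial products on monocytes, rose by 2.45 in KO, 3.56 in N1638 and 2.53 in T1572 (SE 0.18, adjusted p 1.8e-05, 6.4e-06 and 0.000274). Of 5 T lineage markers 2 fell in KO and N1638 and 1 in T1572, of 6 B lineage markers 1 fell in KO and 2 in N1638, and of 7 dendritic markers 1 fell in KO and 3 in N1638. Of 10 neutrophil markers 2 rose in N1638. Of 6 erythroid, 5 megakaryocyte and 5 mast cell and basophil markers 0 were called against WT in any mutant. The mean log2 level of the markers read for LSK cells lay between 12.30 and 12.44 on the WT arrays, 12.36 and 12.50 in KO, 12.22 and 12.35 in N1638 and 12.13 and 12.33 in T1572. Their part in the levels of the ribosomal protein genes was not tested.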

How the data were processed

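Expression in 15 samples was read on 1 array each. Per the submitters' processing notes, which name RMA and the build mm9 without role or version, and per the range of the values, the authors deposited log2 intensities for 45101 probe sets. For background correction and filters no settings are given in the sources used here. Of the probe sets, 34958 have 1 symbol in the platform annotation, 932 have several, and 9211 are unlisted. Probe sets with 1 symbol were kept, 1 per gene by highest mean over 15 arrays, which left 18194 genes.

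Values were used as deposited, without further normalization or filter. A linear model per gene (lmFit, eBayes) was run in limma 3.58.1 under R 4.3.3 on 12 arrays of 4 groups, with 8 residual degrees of freedom, for 6 comparisons. Every p-value and adjusted p given is limma's, two-sided, with Benjamini-Hochberg adjustment over all genes and a threshold of 0.05. The method was tested on simulated data.

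The members and lists were chosen with earlier results of these data known. Values on every array, or their range, are given for 24 members: in each comparison with WT the 3 highest and the 3 lowest, the 3 of largest and the 3 of smallest spread within groups, and Rps19, Rps14, Rpl11, Rplp0, Rpl22, Rpl38, Rpl39 and Rps4x. Rpl5, Rpl10 and Rps27a had no probe set of their own. Genes of lowest p are named from only some of the other lists, with a few of known role. Of these, Rpl22l1, Eef2, Fau and Bbc3 were chosen after their values were seen. RefSeq sequences of GRCm38.p6 were matched by symbol.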

Additional observations from a re-analysis of the deposited data

How the results depend on the processing

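The count of 0 genes called was recomputed for each of the 6 comparisons under 16 alternatives and with each of the 12 arrays left out in turn. Not all alternatives held the 44 genes. With genes at or above the median level there were 41, without probe sets ending in _s_at or _x_at 39, and with shared probe sets as well 68. A threshold of 0.01 could not call a gene that missed 0.05. The count stayed at 0 throughout except once: with array weights it was 1 in N1638 against WT, Rps25 at an adjusted p of 0.0473 by limma. With 1 array left out the counts ran from 0 to 0, and the lowest adjusted p in any comparison was 0.0823. The median log2 difference from WT over the 44 ran, with 1 array left out, from -0.024 to 0.0083 in KO, from -0.0067 to 0.011 in N1638 and from -0.0050 to 0.021 in T1572. When each array was centred on its median over genes, the median over the 44 became 0.18 in N1638 and 0.12 in T1572, while the median over all genes became 0.14 and 0.083. With this centring 8 of the 44 had an unadjusted p under 0.05 in N1638, all counts called stayed at 0 and the lowest adjusted p was 0.0978. The directions of single genes in N1638 and T1572 are therefore relative to the scaling, and intervals within 1.2-fold of WT numbered 36, 3 and 1 of 44 in KO, N1638 and T1572 with it, beside 37, 32 and 39 as deposited. This count was added after seeing the data.

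The share of all genes called depended more on the setting, thresholds of 0.01 and 0.1 included, from 1.39% to 6.59% in KO, from 0.835% to 15.8% in N1638 and from 0.0055% to 1.08% in T1572 against WT. The highest shares in KO and T1572 came with all 6 WT arrays, a setting limited by the look of WT 1 to 3. With 1 array left out it ran from 1.6% to 2.81%, from 1.2% to 5.28% and from 0.0275% to 0.148%. For the 24 members given by array, 1925 of 1926 values under the other settings kept their side of the threshold. The setting with shared probe sets was left out here. A change of sign counted only for a called gene, so the count of 0 reversed calls says little about directions.

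The replicate block needed all 6 WT arrays, since WT 4 to 6 share no number with the mutants. With the block 0 of the 44 were called in each of the 6 comparisons, with a lowest adjusted p of 0.0529, in KO against N1638. It called 2.61%, 5.16% and 0.159% of all genes in KO, N1638 and T1572 against WT, beside 6.59%, 14.1% and 1.08% without it on the same arrays. Both fits use WT 1 to 3, whose values look shifted onto the mean of WT 4 to 6. These arrays may therefore add no independent reading of WT, and the p-values of both fits may be too small. Deviations of same-numbered arrays correlated between -0.13 and 0.43, and 9 of 18 array and group pairs were best correlated with their own number. These values do not decide whether the numbers pair the samples, and the main fit does not use the numbers. Depth here is signal: 35 of the 44 read at 14 or above, near the arrays' highest values, where 0 of 95 other genes were called either.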
